A study of Mus musculus with 20 samples.

Results

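A set of 10 genes of glycerolipid synthesis was followed through the mouse gastrocnemius, a calf muscle, in vehicle-treated and Bmal1-knockout-labelled samples at rest and after exercise. They were Gpam, the acyltransferases Agpat1, Agpat2, Agpat3 and Agpat5, the lipins Lpin1, Lpin2 and Lpin3, and the diacylglycerol acyltransferases Dgat1 and Dgat2. They were taken by name from the deposited count table, in which they make up 10 of 53311 rows, and all 10 were among the 13560 genes that passed the filter on low counts. Agpat3 and Lpin1 were singled out because of their values in these same samples. Their levels and fold changes are therefore a description, without a test, while the other 8 genes were tested.

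Per the labels, all 20 samples shared the genotype Cre+:iMSBmal1 fl/fl, so the vehicle controls carried Cre and the floxed alleles too. All 20 samples were recorded at zeitgeber time 13 (hours after lights on). Exercise was a treadmill run of 30 min, with samples taken 1 h after it. The 4 groups of 5 samples were vehicle without exercise, vehicle with exercise, iMSBmal1KO without exercise and iMSBmal1KO with the same exercise and sampling. They are called resting vehicle, exercised vehicle, resting knockout and exercised knockout. The promoter that drives Cre, the agent that yields the knockout and the age of the animals are not given in the sources used here. Nothing in the labels says that the samples of a group came from separate animals, so p-values measure only the spread between these samples, which may be technical. The closest pair of libraries in each group still differed by more than counting noise (chi-square per degree of freedom 4.04 to 12.2), so none were counted as repeats of 1 library.

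Glycerolipids are built on glycerol 3-phosphate. A glycerol-3-phosphate acyltransferase such as mitochondrial GPAT1 (Gpam) attaches the first fatty acid to give lysophosphatidate, and an AGPAT attaches another to give phosphatidate. Lipins remove the phosphate to give diacylglycerol, and a DGAT adds the last fatty acid to give triacylglycerol. Phosphatidate and diacylglycerol also feed the synthesis of membrane phospholipids, and lipin 1 additionally acts in the nucleus with transcriptional regulators of fat oxidation. BMAL1, encoded by Arntl, is the circadian transcription factor that pairs with CLOCK and binds E-box sequences.

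Total counts ran from 8045154 to 11269812 per library, and mitochondrial transcripts took 7.55% to 15.0% of them. Levels below are counts after TMM scaling to 1000000 per library (CPM), and a mean ± SD covers 5 samples. Arntl, the targeted gene, was not lower in the samples labelled knockout: its log2 fold change was 0.24 in the resting samples and 0.20 in the exercised ones, each against vehicle (edgeR adjusted p = 0.725 and 0.689). It ranged from 9.74 to 14.9 CPM in resting vehicle, 7.90 to 21.4 CPM in exercised vehicle, 12.1 to 16.4 CPM in resting knockout and 11.5 to 21.2 CPM in exercised knockout. Whether the counted reads cover the deleted part of Arntl is not given in the sources used here, and all directions below rest on the labels. Dbp, a gene that the clock activates, was lower in the samples labelled knockout, at 10.8 to 13.9 CPM against 68.7 to 87.1 CPM in resting vehicle (edgeR adjusted p = 2.8e-14). In the exercised samples it was at 10.4 to 14.3 CPM against 56.0 to 64.9 CPM (edgeR adjusted p = 2.62e-13). The 5 muscle fibre markers were Acta1, Ckm, Ttn, Des and Myh4. All 5 were detected in every group, and their summed level was 84732 to 168907 CPM. The sum of 7 slow-fibre markers differed widely within each group, from 75.8 to 2422 CPM in resting vehicle, 35.5 to 2344 CPM in exercised vehicle, 211 to 3539 CPM in resting knockout and 48.3 to 2377 CPM in exercised knockout. Over all genes edgeR called 3.86% in knockout at rest, 6.42% in knockout after exercise and 0.804% for exercise in vehicle. For exercise in knockout and for the difference between exercise responses it called 0%. Of the 7 slow-fibre markers edgeR called 0 in each of the 5 contrasts, with 0 at an unadjusted p under 0.05 and 0 called by DESeq2. Their fitted values still leaned to 1 side: all 7 were higher in knockout at rest (median log2 0.66), 6 were lower in knockout after exercise (median -0.37), and all 7 were lower for exercise in vehicle (median -0.40), for exercise in knockout (median -1.49) and in the difference between exercise responses (median -1.06). At rest all 7 fast-fibre markers (median log2 0.19) and all 6 fibroblast markers (median 0.28) were also fitted higher in knockout. After exercise all 6 fibroblast markers were again higher (median 0.24), while 3 fast-fibre markers were higher and 4 lower. Of these edgeR called 0. Directions of markers measured in the same libraries are not separate observations. In bulk tissue, fewer cells of a type and less RNA per cell cannot be told apart.

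The promoter windows of Agpat3 and Lpin1 and the first windows of Lpin2 and Lpin3 are shown. The results turn on Agpat3 and Lpin1, and the other lipins are set beside Lpin1. They come from RefSeq on build GRCm38.p6 and run from 250 bases before to 50 bases after the annotated start. Capitals mark the motifs found. The windows lie at chr10:78351651-78351950 on the minus strand (Agpat3), chr12:16610917-16611216 on the minus strand (Lpin1), chr17:71183282-71183581 on the plus strand (Lpin2) and chr2:160880420-160880719 on the plus strand (Lpin3), each written 5′ to 3′ along its gene.
Agpat3: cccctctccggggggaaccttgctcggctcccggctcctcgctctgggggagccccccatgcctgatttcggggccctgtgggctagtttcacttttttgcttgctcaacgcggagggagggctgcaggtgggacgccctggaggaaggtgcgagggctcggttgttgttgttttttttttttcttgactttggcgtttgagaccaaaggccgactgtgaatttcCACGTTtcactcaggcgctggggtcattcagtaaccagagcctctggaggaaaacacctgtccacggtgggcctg
Lpin1: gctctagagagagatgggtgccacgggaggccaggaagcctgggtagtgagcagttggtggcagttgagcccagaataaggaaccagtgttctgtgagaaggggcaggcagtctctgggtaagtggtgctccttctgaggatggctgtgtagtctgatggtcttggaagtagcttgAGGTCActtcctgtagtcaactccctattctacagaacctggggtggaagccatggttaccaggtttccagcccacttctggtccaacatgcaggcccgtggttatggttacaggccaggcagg
Lpin2: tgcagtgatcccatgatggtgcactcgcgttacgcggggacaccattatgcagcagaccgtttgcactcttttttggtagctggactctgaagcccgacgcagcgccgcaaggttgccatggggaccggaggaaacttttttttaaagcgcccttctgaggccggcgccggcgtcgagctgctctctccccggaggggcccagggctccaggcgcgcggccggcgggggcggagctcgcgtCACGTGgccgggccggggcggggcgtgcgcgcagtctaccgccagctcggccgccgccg
Lpin3: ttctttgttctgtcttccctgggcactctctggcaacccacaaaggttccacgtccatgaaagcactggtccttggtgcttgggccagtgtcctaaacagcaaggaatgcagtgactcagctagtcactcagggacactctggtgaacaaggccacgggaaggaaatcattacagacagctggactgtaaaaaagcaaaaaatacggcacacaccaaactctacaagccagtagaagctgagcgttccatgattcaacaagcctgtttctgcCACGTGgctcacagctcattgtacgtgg
The motifs searched on both strands were the E-box CACGTG, the related E'-box CACGTT, the D-box TTATGTAA or TTACGTAA bound by DBP and its relatives, and the nuclear receptor half-site AGGTCA, a core shared by ROR and REV-ERB response elements. None of the motifs overlaps another in the windows shown. Of the 10 genes, 7 had a window (all but Agpat5, Dgat1 and Dgat2), and 12 windows were found for them. The Agpat3 window held 1 E'-box, beginning at position -25 from the start, and no E-box. The first windows of Lpin2 and Lpin3 held 1 E-box each, at -9 and 23. Windows 2 and 3 of Lpin2 and window 2 of Lpin3, not shown, held none of the motifs. The Lpin1 window held 1 nuclear receptor half-site at -74 and neither kind of E-box. The second windows of Agpat1 and of Gpam also held a half-site, and none of the 12 windows held a D-box. Among 32851 promoter windows, 7.15% held an E-box, 4.68% an E'-box, 1.06% a D-box and 16.3% a half-site. These are matches of letters and do not show binding.

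Compared per kilobase of exon, the genes covered a wide range in vehicle at rest. Lpin1 (29.4 ± 1.53 CPM per kilobase, SD, n = 5), Gpam (28.4 ± 4.29) and Agpat1 (25.0 ± 3.71) had the highest levels and overlapped within their spread. Agpat3 (13.1 ± 0.524) and Dgat2 (12.8 ± 9.70) followed, also within their spread. Dgat1 (2.91), Agpat5 (2.20), Agpat2 (1.60), Lpin3 (0.926) and Lpin2 (0.192) were low. In knockout at rest the order of the leading genes was Lpin1 (42.2 ± 3.20), Agpat3 (26.5 ± 1.22), Gpam (23.4 ± 3.76) and Agpat1 (22.3 ± 1.81), so that Agpat3 stood beside Gpam and Agpat1 there.

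Gpam, which encodes the mitochondrial enzyme of the first acylation, was measured at 189.0 ± 28.6 CPM in the resting vehicle samples, against 156 ± 25.0 CPM in the resting knockout samples. The exercised samples had 162 ± 33.1 CPM (vehicle) and 148 ± 41.9 CPM (knockout). The 4 groups overlapped, and its log2 fold change in knockout at rest was -0.28 (SE 0.18, edgeR adjusted p = 0.505). After exercise the knockout difference was -0.13 (edgeR adjusted p = 0.744).

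Agpat3, which encodes an acyltransferase of the endoplasmic reticulum and Golgi that makes phosphatidate and other phospholipids, was higher in both knockout groups. Its level in vehicle at rest was 105, 97.5, 103, 98.4 and 107 CPM in the 5 samples. In knockout at rest it was 209, 213, 189.8, 209.8 and 212 CPM. Every knockout sample at rest lay above every vehicle sample, and the spread within each group was small beside the gap between them. After exercise the vehicle samples had 108, 100.5, 116, 98.9 and 108 CPM, and the knockout samples had 226, 201, 245, 198 and 215 CPM. The genotype groups did not overlap there either. Group means for vehicle were 102 ± 4.08 CPM (rest) and 106 ± 6.89 CPM (exercise), and those for knockout were 207 ± 9.52 CPM (rest) and 217 ± 19.4 CPM (exercise). The log2 fold change in knockout was 1.02 (SE 0.076) at rest, a 2.02-fold higher level, and 1.03 (SE 0.076) after exercise. The difference between exercised and resting samples was 0.06 (SE 0.076) in vehicle and 0.07 (SE 0.075) in knockout on the log2 scale, with overlapping groups in both. The knockout differences at rest and after exercise were apart by 0.01 (SE 0.11) on the log2 scale. Exons of Agpat3 share 0.205% of their length with those of an overlapping gene model.

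**Figure D1:**
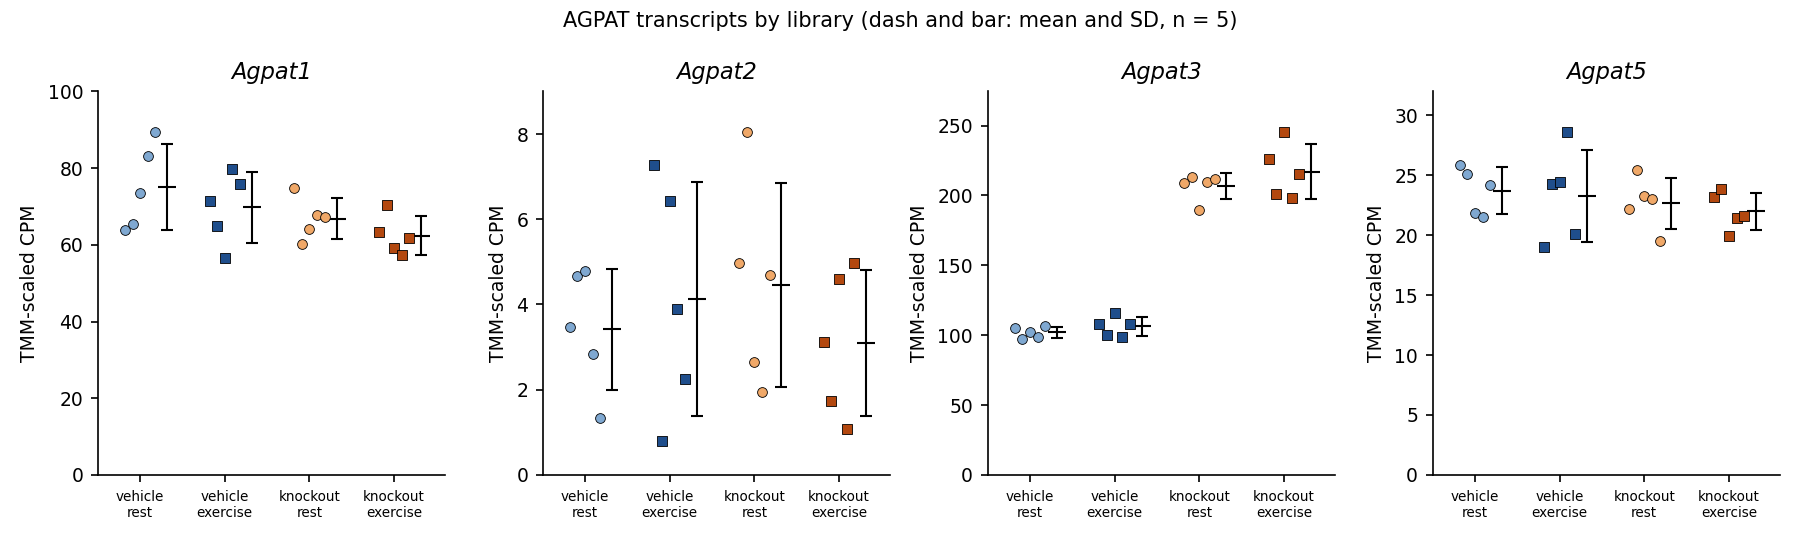
Levels of the 4 AGPAT genes, in CPM, for each of the 20 libraries in the 4 groups, with the mean and SD of each group drawn beside the points. Agpat3 lies between 97.5 and 116 CPM in the 10 vehicle libraries and between 189.8 and 245 CPM in the 10 knockout-labelled libraries, while the other AGPAT genes overlap between groups.

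The other AGPAT genes were tested, and edgeR called none of them. Agpat3 was chosen on its own values, so nothing is read from its contrast with them. Agpat1, which encodes an endoplasmic reticulum enzyme of the same reaction, was measured at 75.0 ± 11.1 CPM (rest) and 69.7 ± 9.18 CPM (exercise) in vehicle, and at 66.8 ± 5.42 CPM (rest) and 62.4 ± 5.12 CPM (exercise) in knockout. Its knockout difference at rest was -0.17 on the log2 scale (SE 0.10, approximate 95% interval -0.39 to 0.053, edgeR adjusted p = 0.497), and after exercise it was -0.16 (edgeR adjusted p = 0.424). Agpat5, which encodes a mitochondrial AGPAT, was measured at 23.7 ± 1.94 CPM (rest) and 23.3 ± 3.85 CPM (exercise) in vehicle, and at 22.6 ± 2.14 CPM (rest) and 21.99 ± 1.55 CPM (exercise) in knockout. Its knockout difference at rest was -0.067 (95% interval -0.29 to 0.16, edgeR adjusted p = 0.842). Agpat5 shares 18.9% of its exon length with an antisense gene model, and since the strandedness of the counting is not given, reads of the pair cannot be told apart.

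Agpat2, the AGPAT of fat tissue whose loss causes congenital lipodystrophy, was low and variable. It had 7 to 71 counts per library. In vehicle at rest the samples had 3.48, 4.66, 4.78, 2.83 and 1.33 CPM, and in knockout at rest they had 4.97, 8.04, 2.66, 1.94 and 4.69 CPM. After exercise it ran from 0.797 to 7.28 CPM in vehicle and from 1.08 to 4.97 CPM in knockout. The groups overlapped in every comparison, and the log2 difference in knockout was 0.37 among resting samples (SE 0.51, edgeR adjusted p = 0.816) and -0.38 among exercised ones (edgeR adjusted p = 0.747).

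The share of each AGPAT in the summed level of the 4 genes, in CPM per kilobase of exon, was calculated for each library. Agpat1 made up 59.4 ± 4.26% (rest) and 56.6 ± 5.04% (exercise) in vehicle, against 42.0 ± 2.73% (rest) and 39.9 ± 3.31% (exercise) in knockout. Agpat3 made up 31.4 ± 2.33% and 33.4 ± 3.34% in the vehicle groups, against 50.1 ± 1.44% and 53.4 ± 2.80% in the knockout groups. Agpat1 was thus the main AGPAT transcript per length in vehicle, and Agpat3 in knockout. The order in vehicle rests on the division by exon length. In CPM, Agpat3 was above Agpat1 in vehicle as well (102 against 75.0 at rest, 106 against 69.7 after exercise). These shares follow from the Agpat3 levels above and are no separate evidence.

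Lpin1, which encodes the main phosphatidate phosphatase of skeletal muscle, was lowest in vehicle at rest and higher in the other 3 groups, which overlapped. Vehicle at rest had 263, 275, 296, 298 and 287 CPM. Vehicle after exercise had 429, 411, 486, 459 and 337 CPM, so that every exercised sample lay above every resting one. Knockout at rest had 441, 415, 400.3, 422 and 359 CPM, again all above the resting vehicle samples. Knockout after exercise had 413, 408, 437, 442 and 438 CPM, within the range of the exercised vehicle samples, 337 to 486 CPM. Group means for vehicle were 284 ± 14.8 CPM (rest) and 425 ± 56.6 CPM (exercise), and those for knockout were 407 ± 30.9 CPM (rest) and 428 ± 16 CPM (exercise).

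The log2 fold change of Lpin1 in knockout was 0.52 at rest (SE 0.090, 1.44-fold) and 0.01 after exercise (SE 0.089). Its exercise difference was 0.58 in vehicle (SE 0.090, 1.5-fold) and 0.07 in knockout (SE 0.089). The level of Lpin1 in the resting knockout samples thus overlapped that of the exercised vehicle samples. The exercise difference in knockout minus that in vehicle was -0.51 on the log2 scale (SE 0.13). For this difference edgeR called 0 of the 13560 genes, so Lpin1 was not called either.

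**Figure D2:**
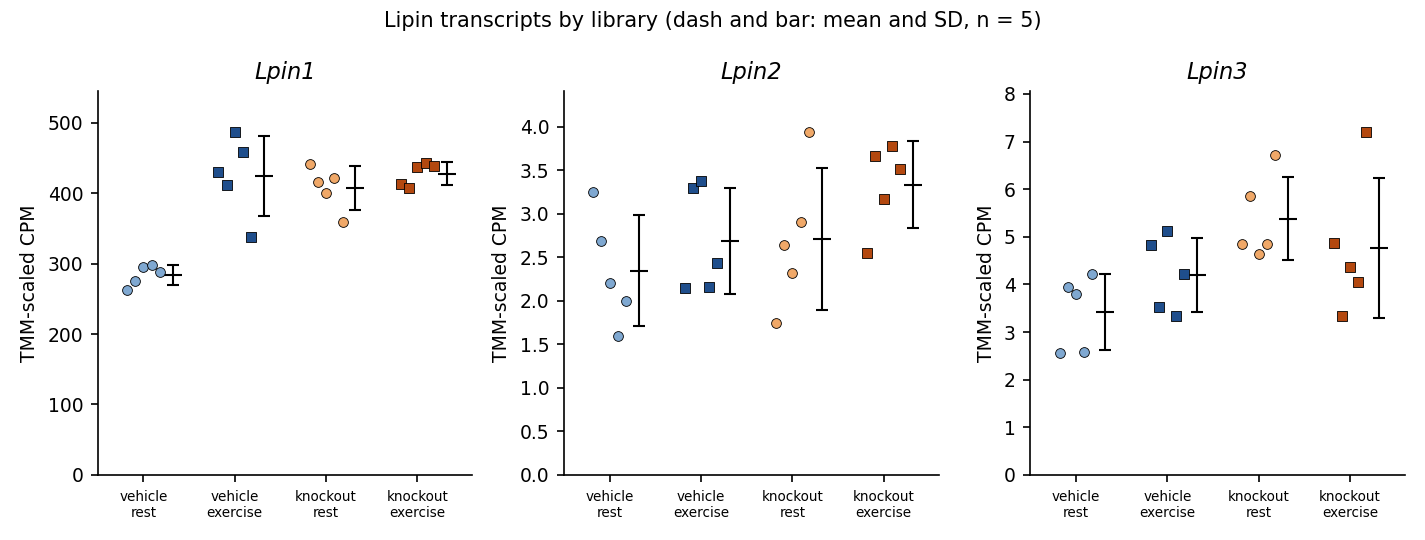
Levels of the 3 lipin genes, in CPM, for each of the 20 libraries in the 4 groups, with the mean and SD of each group. Lpin1 lies between 263 and 298 CPM in vehicle at rest and between 337 and 486 CPM in the other 3 groups, while Lpin2 reaches at most 3.94 CPM and Lpin3 at most 7.2 CPM.

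Lpin2, a lipin more prominent in liver, was measured at 1.60 to 3.94 CPM across all libraries (13 to 41 counts). Its knockout difference was 0.21 at rest (edgeR adjusted p = 0.776) and 0.32 after exercise (edgeR adjusted p = 0.492). Lpin3, the remaining lipin, was at 2.55, 3.94, 3.8, 2.58 and 4.22 CPM in vehicle at rest and at 4.85, 5.86, 4.65, 4.85 and 6.71 CPM in knockout at rest. The resting groups did not overlap, yet the log2 fold change of 0.65 (SE 0.21) did not pass the threshold over all genes (edgeR adjusted p = 0.1, unadjusted p = 0.00543). In the exercised samples Lpin3 was at 4.21 ± 0.778 CPM (vehicle) and 4.77 ± 1.47 CPM (knockout), and the groups overlapped (log2 difference 0.19, edgeR adjusted p = 0.673). Lpin3 had 21 to 84 counts per library, which limits the precision of these values. Per kilobase of exon, Lpin1 was 96.1% to 97.0% of the summed lipin level in the 4 groups, Lpin3 2.54% to 3.36% and Lpin2 0.489% to 0.638%.

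Dgat2, which encodes an acyltransferase of triacylglycerol synthesis at the endoplasmic reticulum and lipid droplet, varied widely between samples of the same group. Vehicle at rest had 66.6, 68.2, 45.7, 9.23 and 6.88 CPM, and vehicle after exercise had 53.1, 4.44, 75.6, 15.0 and 34.0 CPM. Knockout at rest had 15.4, 15.9, 10.7, 5.71 and 13.3 CPM, and knockout after exercise had 15.9, 3.89, 21.7, 2.7 and 26.0 CPM. The highest vehicle samples lay above all knockout samples, but the lowest vehicle samples were as low as the knockout ones, so the groups overlapped in both states. Means were 39.3 ± 29.9 CPM (vehicle) and 12.2 ± 4.16 CPM (knockout) at rest, and 36.4 ± 28.7 CPM (vehicle) and 14.0 ± 10.4 CPM (knockout) after exercise. The log2 difference among resting samples was -1.70 (SE 0.77, edgeR adjusted p = 0.321, unadjusted p = 0.0432). Among exercised samples it was -1.36 (SE 0.76, edgeR adjusted p = 0.356), and neither passed the threshold.

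Dgat2 varied with the slow-fibre markers from library to library. In resting vehicle, the summed slow-fibre level of the same 5 libraries was 2422, 2107, 1148, 622 and 75.8 CPM, in the order in which Dgat2 is given above. In resting knockout it was 3038, 3539, 1266, 211 and 1938 CPM. Within each of these groups the 2 libraries with the highest slow-fibre level had the highest Dgat2, while the knockout library at 1266 CPM had 10.7 CPM of Dgat2 and the vehicle library at 1148 CPM had 45.7 CPM. Over the 20 libraries, Pearson's r of its log2 CPM with the summed slow-fibre level was 0.76 (permutation p = 0.00013) and Spearman's rho was 0.72 (permutation p = 0.00052). Without the 2 libraries farthest from the median slow-fibre level, r was 0.69. Within the groups, after each group's mean was removed, r was 0.94 (permutation p = 1e-05, the smallest that 100000 permutations can give). Among the 10 genes and 9 marker lists 90 relations were computed, and after Benjamini-Hochberg adjustment over them these values were 0.00234, 0.00936 and 0.0006. Within the 10 vehicle libraries alone r was 0.91, and within the 10 knockout-labelled libraries it was 0.90. Which part of the muscle each sample held is not given in the sources used here.

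With the summed slow-fibre level added as a covariate, an alternative chosen after the data were seen, the knockout difference of Dgat2 was -1.92 on the log2 scale among resting samples (SE 0.28, edgeR adjusted p = 0.000316). Among exercised samples it was -1.21 (SE 0.29, edgeR adjusted p = 0.0118). Dgat2 varied with this covariate in the same libraries, so these p-values are no separate test of Dgat2. No other marker list was used as a covariate. With the slow-fibre covariate 6.23% of all genes were called at rest (2.99% lower) and 10.5% after exercise (5.74% lower). Under the other alternatives run, the resting difference of Dgat2 had an edgeR or DESeq2 adjusted p of 0.25 to 0.495. Exercise differences of Dgat2 were not called with it (edgeR adjusted p = 0.68 in vehicle and 0.333 in knockout).

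**Figure D3:**
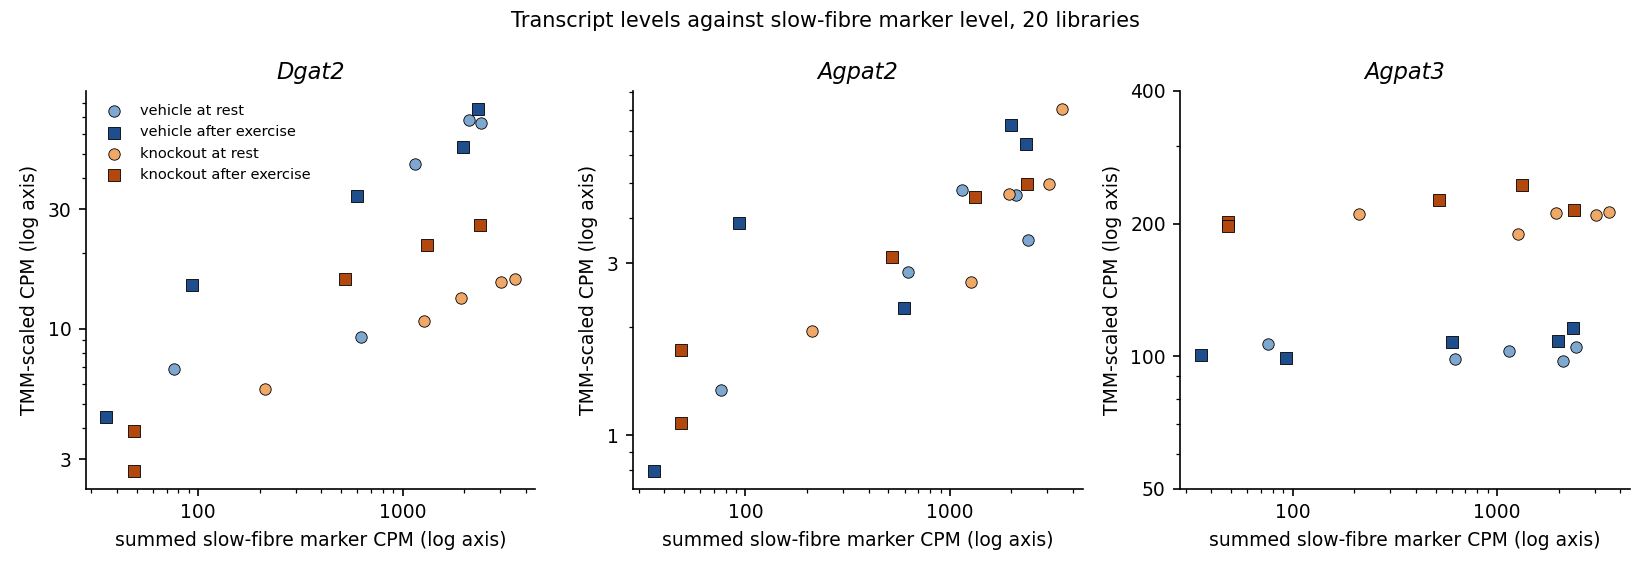
Level of Dgat2, Agpat2 and Agpat3 in CPM against the summed level of 7 slow-fibre markers in CPM, both on log axes, with 1 point per library and a mark for each group. Dgat2 and Agpat2 rise with the slow-fibre level, and Agpat3 lies at 2 levels, lower in vehicle and higher in knockout, across its range.

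Agpat2 also varied with the slow-fibre level, with a Pearson r of 0.87 (permutation p = 2e-05), a Spearman rho of 0.85 (permutation p = 1e-05, the smallest possible) and an r within groups of 0.88 (permutation p = 4e-05). Without the 2 farthest libraries its r was 0.82. The adjusted values were 0.00112, 0.0009 and 0.00072. Gpam had an r of 0.57 (permutation p = 0.00852, adjusted 0.0697) and a rho of 0.42 (permutation p = 0.0637), and r was 0.36 without the 2 farthest libraries. Within groups its r was 0.62 (permutation p = 0.0135, adjusted 0.101). With the fast-fibre markers Gpam had a rho of -0.66 (permutation p = 0.00204, adjusted 0.0229), which passed. Its r there was -0.57 (permutation p = 0.00818, adjusted 0.0697), and -0.53 within groups (permutation p = 0.0112, adjusted 0.0942). For Agpat3 r was 0.12 (permutation p = 0.6) and rho 0.22 (permutation p = 0.339) over all libraries, and r was 0.53 within groups (permutation p = 0.0471, adjusted 0.223). For Lpin1 r was -0.11 (permutation p = 0.653) and rho 0.045 (permutation p = 0.851). Dgat2 also varied with the endothelial markers (r = 0.71, permutation p = 0.00022, rho = 0.70, permutation p = 0.00091, and r = 0.57 without the 2 farthest libraries). With the fast-fibre markers its r was -0.80 (permutation p = 3e-05) and its rho -0.86 (permutation p = 2e-05), and r was -0.73 without the 2 farthest libraries. The adjusted Pearson values were 0.00283 and 0.00112. Its r with the muscle fibre markers was -0.74 (permutation p = 0.00019, adjusted 0.00283), its rho -0.79 (permutation p = 8e-05) and its r without the 2 farthest libraries -0.62. With the blood markers its r was 0.58 (permutation p = 0.00675, adjusted 0.0675) and its rho 0.70 (permutation p = 0.00081, adjusted 0.0117). Within groups the r with the blood markers was 0.54 (permutation p = 0.0517, adjusted 0.231), which did not pass. Within groups the r of Dgat2 with the endothelial, fast-fibre and muscle fibre markers was 0.84, -0.80 and -0.86 (adjusted permutation p = 0.00075, 0.0006 and 0.0006). For Agpat2 the muscle fibre markers gave an r of -0.79 (permutation p = 4e-05, adjusted 0.00112), a rho of -0.80 (permutation p = 3e-05) and an r of -0.73 without the 2 farthest libraries. Its r with the endothelial markers was 0.77 (permutation p = 5e-05, adjusted 0.00112), its rho 0.65 (permutation p = 0.00234) and its r without the 2 farthest libraries 0.54. Its r with the fast-fibre markers was -0.62 (permutation p = 0.00397, adjusted 0.0447), its rho -0.61 (permutation p = 0.00491) and its r without the 2 farthest libraries -0.58. The relation of Dgat2 and Agpat2 to slow-fibre markers was thus not the only one that passed the adjustment. With the 8 fat cell markers the r of Dgat2 was 0.27 (permutation p = 0.246, adjusted 0.596) and its rho 0.30 (permutation p = 0.204). The fat cell markers, none at 0 in any group, summed to 61.4 to 128 CPM in resting vehicle, 75.3 to 188 CPM in exercised vehicle, 62.9 to 184 CPM in resting knockout and 72.8 to 94.5 CPM in exercised knockout. Which of these marker lists accounts for the spread of Dgat2 and Agpat2 was not tested. How far the marker sums vary with each other was not tested either, so these relations may not be separate.

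Dgat1, the other diacylglycerol acyltransferase, was measured at 6.90 to 11.6 CPM. Vehicle at rest had 7.42, 11.6, 8.34, 8.61 and 8.55 CPM, and knockout at rest had 8.58, 7.01, 9.74, 6.90 and 7.88 CPM. The groups overlapped, and the log2 difference in knockout was -0.16 among resting samples (edgeR adjusted p = 0.694) and -0.25 among exercised ones (edgeR adjusted p = 0.328).

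Of the 10 genes, 2 had an adjusted p under 0.05 between knockout and vehicle at rest, against 3.86% of all genes tested, and they were Agpat3 and Lpin1. The groups did not overlap for these and Lpin3, 3 of the 10, against 5.8% of all genes. After exercise it was 1, Agpat3, against 6.42% of all genes called and 6.29% without overlap. Exercise in vehicle gave 1, Lpin1, against 0.804% called and 2.04% without overlap. For exercise in knockout edgeR called 0 of the 10, against 0% of all genes called and 0.848% without overlap, and for the difference between exercise responses 0 of the 10, against 0%. Over all genes, 639 and 791 had an unadjusted p under 0.05 in these last comparisons, and DESeq2 called 0 and 2. These counts describe genes that were chosen on the same contrasts, and nothing is read from them. Among the other 8 genes edgeR called 0 in each of the 5 contrasts, and at an unadjusted p under 0.05 there were 2 at rest (Lpin3 and Dgat2) and 0 elsewhere, with the same counts from DESeq2. Over all genes the share at an unadjusted p under 0.05 was 14.6% in knockout at rest, 19.4% in knockout after exercise, 8.92% for exercise in vehicle, 4.71% for exercise in knockout and 5.83% for the difference between exercise responses. The median log2 fold change of the 10 genes was 0.07 in knockout at rest and -0.11 after exercise, beside 0.01 over all genes in each case.

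**Figure D4:**
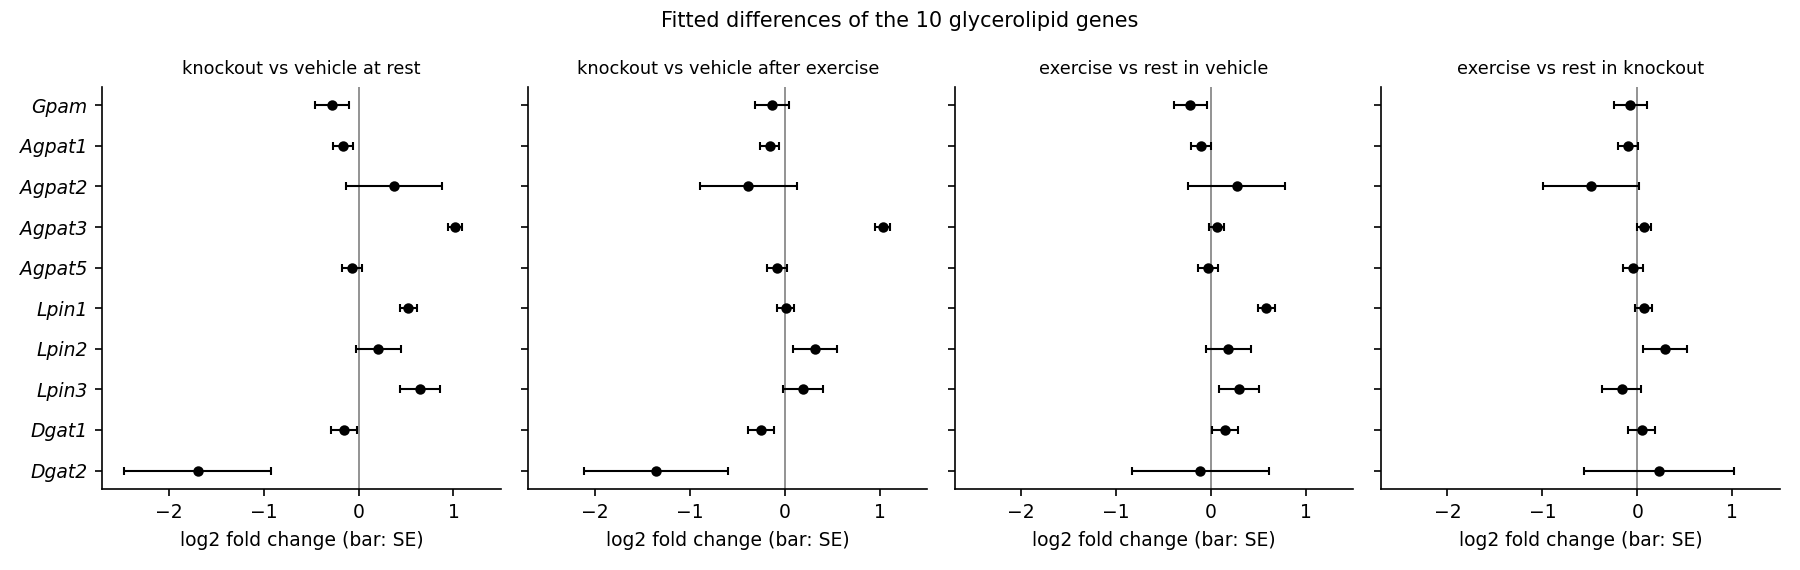
Log2 fold change and its SE for each of the 10 genes in 4 comparisons: knockout against vehicle at rest and after exercise, and exercise against rest in vehicle and in knockout. Agpat3 is near 1.02 in both knockout comparisons, Lpin1 is near 0.52 in knockout at rest and 0.58 for exercise in vehicle, and Dgat2 has the widest SE (0.77 at rest).

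The wider pathway was covered by 8 lists with 82 genes, from acyl-CoA supply to phospholipid synthesis and lipid droplets, of which 74 passed the filter. In knockout at rest 2 rose and 2 fell, beside 1.8% higher and 2.06% lower over all genes, and DESeq2 gave the same counts. Mboat1, a lysophospholipid acyltransferase, rose from 3.19 ± 1.16 to 6 ± 0.863 CPM (log2 0.91, edgeR adjusted p = 0.0186). Cept1, which makes phosphatidylcholine and phosphatidylethanolamine from diacylglycerol, rose from 17.5 ± 2.19 to 27.3 ± 5.20 CPM (log2 0.65, edgeR adjusted p = 0.0241). Pcyt1a, the regulated enzyme of phosphatidylcholine synthesis, fell from 160.0 ± 6.70 to 130.0 ± 8.87 CPM (log2 -0.30, edgeR adjusted p = 0.0165). Acsl6, an acyl-CoA synthetase, fell from 94.6 ± 13.3 to 72.5 ± 6.74 CPM (log2 -0.38, edgeR adjusted p = 0.0396). The fitted changes of the 74 genes were 44 higher and 30 lower, with a median of 0.02 beside 0.01 over all genes. Each of these calls was lost in some fits that left out 1 library. Pcyt1a was lost in 2 of 20 such fits (edgeR adjusted p up to 0.0534, leaving out resting knockout replicate 5), Cept1 in 4 (0.0822, resting knockout replicate 1), Mboat1 in 5 (0.0601, resting vehicle replicate 1) and Acsl6 in 7 (0.144, resting vehicle replicate 4).

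After exercise 3 of the 74 were higher in knockout and 3 were lower, beside 2.67% and 3.75% over all genes. DESeq2, run on all 82, called 4 higher and 5 lower. Mboat1 was higher again, at 6.05 ± 1.37 against 2.16 ± 0.521 CPM (log2 1.48, edgeR adjusted p = 0.000198), and kept its call in every fit that left out 1 library. Its counts were low, from 14 to 78 per library. Cept1 was higher by 0.57 on the log2 scale (edgeR adjusted p = 0.038). Pnpla2, the triacylglycerol lipase ATGL, was higher at 271 ± 33.6 against 203 ± 27.1 CPM (log2 0.42, edgeR adjusted p = 0.0325). Nr3c1, the glucocorticoid receptor, was lower at 66.8 ± 7.72 against 107 ± 25.5 CPM (log2 -0.68, edgeR adjusted p = 0.00148), also in every such fit. Gpat3, a glycerol-3-phosphate acyltransferase of the endoplasmic reticulum, was lower at 2.47 ± 1.03 against 7.07 ± 4.72 CPM (log2 -1.49, edgeR adjusted p = 0.0141), from 12 to 138 counts per library. Its level was 4.62, 2.62, 7.52, 14.9 and 5.72 CPM in exercised vehicle and 2.20, 1.51, 3.06, 1.62 and 3.94 CPM in exercised knockout, so the groups overlapped and vehicle replicate 4 stood highest. That library also had the highest marker sums of its group for fat cells (188 CPM, the others 75.3 to 98.5), blood (366 CPM, the others 57.7 to 254) and nerve (87.6 CPM, the others 10.7 to 58.0). In exercised knockout these sums were 72.8 to 94.5 CPM (fat cells), 48.1 to 139 CPM (blood) and 23.0 to 42.8 CPM (nerve). Exercised vehicle replicate 4 also had the highest muscle fibre sum of its group (132469 CPM, the others 84732 to 132293). Its macrophage (35.1 CPM), endothelial (144 CPM) and fibroblast (321 CPM) sums lay within the range of the others in its group. In this contrast all 6 fat cell markers tested (median log2 -0.50), all 5 blood markers (median -0.99) and all 3 nerve markers tested (median -0.37) were fitted lower, and edgeR called 1 of them, Hba-a2 of the blood list. Other lists leaned higher in knockout. These were all 6 fibroblast markers (median 0.24), 5 of 7 macrophage markers (median 0.15) and 4 of 6 endothelial markers (median 0.076). Of these edgeR called 0. The part of these marker lists in the 6 calls was not tested. Acsl6 was lower by -0.37 (edgeR adjusted p = 0.0368). Leaving out 1 library ended the calls of Cept1 in 6 of 20 fits (edgeR adjusted p up to 0.116, leaving out exercised vehicle replicate 1), Pnpla2 in 7 (0.091, exercised knockout replicate 5), Acsl6 in 7 (0.109, exercised vehicle replicate 2) and Gpat3 in 1 (0.0547, exercised vehicle replicate 4). Cept1 and Gpat3 share 24.7% and 30.0% of their exon length with opposite-strand gene models. Gpat3 shares a further 7.4% with a gene model on the same strand.

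In vehicle, 2 of the 74 were higher after exercise and 0 were lower by edgeR, beside 0.605% and 0.199% over all genes. At an unadjusted p under 0.05 there were 6 higher and 4 lower, and DESeq2 called 2 higher and 0 lower. Plin4, a lipid droplet coat protein, rose from 286 ± 18.1 to 407 ± 40.4 CPM (log2 0.51, edgeR adjusted p = 0.0445), a call lost in 13 of 20 fits with 1 library left out (edgeR adjusted p up to 0.147, leaving out resting vehicle replicate 2). Nr3c1 rose from 69.2 ± 5.95 to 107 ± 25.5 CPM (log2 0.63, edgeR adjusted p = 0.0154), lost in 3 (0.061, exercised vehicle replicate 4). In knockout, edgeR called 0 of the 74 after exercise, with 4 at an unadjusted p under 0.05 (2 in each direction) and 0 called by DESeq2. For the difference between exercise responses edgeR again called 0, with 1 higher and 3 lower at an unadjusted p under 0.05 and 0 called by DESeq2.

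The genes whose levels most resembled that of Agpat3 over the 20 libraries were Clpx, Stim1 and Sh3bp5, each with r = 0.96. Clpx is a subunit of a mitochondrial protease and Stim1 a calcium sensor of the endoplasmic reticulum. Within groups these r were 0.44, 0.50 and 0.18, lower than over all libraries. For Lpin1 they were Nfil3, a repressor that binds D-boxes (r = 0.90), and the heat-shock genes Hsph1 (0.86) and Hspa8 (0.83), with r of 0.37, 0.64 and 0.68 within groups. Agpat3 and Lpin1 had r = 0.53 with each other over the 20 libraries and 0.056 within groups.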

How the data were processed

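RNA of 20 gastrocnemius samples, 5 in each of 4 groups, was measured by sequencing. The authors deposited whole-number counts per gene symbol, unnormalized as far as the values show. Per the submitters' processing notes, Partek, STAR 2.7.8a and DESeq2 were used, with the builds mm10 and GRCm39 named without a role. The annotation and strandedness are not given in the sources used here. The groups come from the treatment label. The description of the exercised knockout samples speaks of training, and they were analysed as acute exercise, as their titles and treatments say.

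Counts were analysed with edgeR 4.0.16 in R 4.3.3 (filterByExpr with a minimum count of 10, TMM scaling, robust quasi-likelihood test, 1 mean per group, 20 samples, 5 contrasts). The filter left 13560 genes holding 99.83% of counts. P-values were adjusted over those genes (Benjamini-Hochberg), with a threshold of 0.05, and SE comes from the F statistic. Log2 CPM used a prior count of 2, and correlations 100000 permutations. Exon lengths came from GENCODE M21 and promoter windows from RefSeq, GRCm38.p6. The code was tested on simulated counts. Alternatives covered scaling, DESeq2 1.42.0, the filter, the samples in the model, the replicate block, each library left out in turn and, added later, a slow-fibre covariate.

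The members, the lists and the tests were chosen with earlier results of these data known. The genes named were the 10 members, list genes with an adjusted p under 0.05, the 3 genes most like Agpat3 and Lpin1 by Pearson r, and Arntl and Dbp as a check of the labels.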

Additional observations from a re-analysis of the deposited data

Results flagged for a closer look

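Within a group of 5, a library was set apart where its gap to the nearest of the others took up most of the group's range (Dixon's test at the 95% level). This happened in 6 of 104 combinations of gene and group, over 26 genes, and chance gives about 1 in 20. Agpat3 was low in knockout at rest replicate 3, at 189.8 CPM with the nearest library at 209 CPM, though still above all vehicle libraries. Dgat1 was high in vehicle at rest replicate 2, at 11.6 CPM against 8.61 CPM in the nearest, and low in vehicle after exercise replicate 3, at 8.28 CPM against 10.01 CPM. Cept1 was high in knockout at rest replicate 1, at 36.3 CPM against 26.2 CPM, and without that library its resting call was lost. Mboat1 was high in vehicle at rest replicate 5, at 5.22 CPM against 2.94 CPM. Stim1 was high in vehicle after exercise replicate 3, at 267 CPM against 242 CPM.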

How the results depend on the processing

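The number of the 10 genes called was 2, 1, 1, 0 and 0 in the 5 contrasts. It counts only Agpat3 and Lpin1, which were chosen on these values, so its equal value under the other scalings, DESeq2, the other filters, the replicate block and each library left out supports nothing. With the slow-fibre covariate Dgat2 was added, and 3 were called in knockout at rest and 2 in knockout after exercise. The labels do not say what a shared replicate number means. Of 30 same-number pairs, 15 had correlated deviations over 0.1 (from -0.45 to 0.44), and 4 of 20 samples correlated best with their own number. Between the exercised groups 4 of 5 pairs were over 0.1 (0.26 to 0.44) and the other was at 0.018. Whether the numbers pair samples cannot be told from these values, and the main fit had no replicate block. With the replicate block Dgat2 in knockout after exercise was -1.35 (edgeR adjusted p = 0.327). Some changes turned sign under some settings, and not all of them were near 0 in the main fit. Lpin1 in knockout after exercise was -0.0040 with no filter and ranged from -0.062 to 0.054 with 1 library left out, and the Agpat3 interaction then ranged from -0.034 to 0.047. With the covariate, exercise in vehicle gave Dgat2 0.33, against -0.11 in the main fit. Exercise in knockout gave Agpat2 0.12, against -0.49 in the main fit, and Gpam 0.069, against -0.074. The Agpat1 interaction was -0.034 with the covariate, against 0.0064. The Agpat5 interaction was 0.0018 with upper quartile scaling and 0.019 with library size only. With 1 library left out, knockout after exercise ranged from -0.15 to 0.0062 for Agpat5 and from -0.027 to 0.29 for Lpin3. Exercise in vehicle ranged from -0.044 to 0.53 for Agpat2 (0.27 in the main fit), from -0.12 to 0.031 for Agpat5 and from -0.56 to 0.18 for Dgat2. Exercise in knockout ranged from -0.092 to 0.0024 for Agpat5, from -0.045 to 0.13 for Dgat1, from -0.13 to 0.48 for Dgat2 and from -0.21 to 0.053 for Gpam. The interaction ranged from -0.065 to 0.065 for Agpat1, from -0.076 to 0.073 for Agpat5 and from -0.024 to 0.28 for Lpin2. For Dgat2 it ranged from -0.015 to 0.79 (0.34 in the main fit). The cause was not tested. Among pathway genes, some calls were lost under other settings: Pcyt1a at rest (adjusted p = 0.0776) and Cept1 after exercise (0.0569) with no filter, Pnpla2 after exercise (0.0613) and Plin4 (0.0958) with library size only, Plin4 with upper quartile scaling (0.0652), and Gpat3 (0.0893), Cept1 (0.0968), Pnpla2 (0.0588), Acsl6 (0.0652) and Nr3c1 for exercise (0.0804) in edgeR fits of only the groups compared. The replicate block ended the calls of Acsl6 (0.0628 at rest, 0.0507 after exercise), Cept1 after exercise (0.0552) and Plin4 (0.0568). Depth limits Lpin2, Lpin3 and Agpat2, and among the pathway genes called Mboat1 and Gpat3, whose counts were low.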
